A study of Mus musculus with 7 samples.

Results

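The open chromatin regions (OCRs) of the Erg and Fli1 loci were described in HPC7, a mouse hematopoietic progenitor cell line grown with stem cell factor, from bulk ATAC-seq, in which the Tn5 transposase cuts accessible DNA. The 7 libraries, called here HPC7-1, HPC7-2 and HPC7-4 to HPC7-8, are given 1 condition by their labels, with no treatment, genotype or time, and the study describes its libraries as coming from independent culture batches of the line. An OCR was a member when it overlapped the body of either gene or the 50 kb on either side of it (mm10, GENCODE M21). Peaks of the 7 lists that overlapped by at least 1 bp were merged into 144931 OCRs, of which 96 were members, 48 in the Erg window and 48 in the Fli1 window. The study's purpose for these libraries was a reference profile of open chromatin for the line.

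Erg and Fli1 encode closely related transcription factors of the ETS family, which bind DNA at a GGAA core. Both are needed in blood stem and progenitor cells and in megakaryocytes, and with Gata2, Runx1, Tal1, Lyl1 and Lmo2 they are known as the heptad, a group of factors that bind many of the same blood enhancers, among them enhancers of their own genes. The best known of these at the present loci are the stem cell enhancers called Erg +85 and Fli1 +12, which lie in introns and are named by their distance in kb from a start site. A strong ATAC-seq peak marks accessible DNA and does not by itself show enhancer activity.

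The peak caller gives each peak a fold enrichment, the reads at its summit over the background of the library. No normalization of fold enrichment between libraries is stated, so intensity is given here also as a percentile, the rank of a peak among all peaks of its own library, where 50 is the median. The lists held between 84593 (HPC7-6) and 132852 (HPC7-1) peaks. The background, a measure of depth, was 20.4 reads in HPC7-1 and between 4.44 and 7.45 reads in the other 6 libraries. After a folder name common to all 7 lists, every peak name goes on with the prefix VD in 3 lists (HPC7-1, -2 and -4) and with EtOH in 4 (HPC7-5 to -8). What these prefixes stand for is given by neither the labels nor the study. They were therefore not taken as conditions, and it remains unknown if all cultures had the same treatment. For each tested difference the means within each prefix are given beside it.

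The sequences under 6 OCRs and 1 start site carry the description that follows, and each is the 201 bp around the median summit, or the 200 bp upstream of the start, of the mm10 reference, read 5′ to 3′ on the minus strand, the strand of both genes. Capitals mark matches on either strand to short motifs bound by the heptad families: CCGGAA and AGGAAG for ETS factors, AGATAA and TGATAA for GATA factors, CAGCTG and CAGATG for the E-boxes of Tal1 and Lyl1, and TGTGGT for Runx1. The first 2 are the highest OCRs of the Erg window, both intronic. The +84.2 kb OCR (chr16:95375006-95375206) held AGGAAG 3 times, 1 of them beside the E-box CAGATG, and TGTGGT 1 time. The +19.4 kb OCR (chr16:95439877-95440077) held TGATAA 2 times and AGATAA 1 time, with 1 pair of these overlapping, and no match to the other letters searched.
Erg +84.2 kb: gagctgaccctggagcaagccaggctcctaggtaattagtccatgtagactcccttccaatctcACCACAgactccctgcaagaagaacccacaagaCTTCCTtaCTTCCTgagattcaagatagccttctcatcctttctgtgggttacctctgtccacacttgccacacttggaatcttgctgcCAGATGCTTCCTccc
Erg +19.4 kb: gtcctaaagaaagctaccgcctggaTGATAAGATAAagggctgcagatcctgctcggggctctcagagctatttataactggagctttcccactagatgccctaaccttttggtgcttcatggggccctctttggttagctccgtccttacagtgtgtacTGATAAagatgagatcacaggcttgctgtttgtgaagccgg
The next sequence (chr16:95459429-95459629) is from the Erg OCR at the internal start, which covers the only Erg starts under a peak. It is shown for that reason and held 1 AGATAA and 1 CAGATG. The 201 bp shown lie upstream of these starts and do not include them.
Erg internal start: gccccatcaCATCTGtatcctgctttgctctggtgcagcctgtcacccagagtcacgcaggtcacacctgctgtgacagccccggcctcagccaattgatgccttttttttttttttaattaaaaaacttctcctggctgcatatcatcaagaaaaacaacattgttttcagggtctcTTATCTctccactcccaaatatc
The Erg OCR at +31.0 kb (chr16:95428225-95428425) is shown for the order of its values among the libraries. It held the E-box CAGCTG 2 times, and 1 each of the ETS motif AGGAAG, the GATA motif TGATAA, the E-box CAGATG and the Runx1 motif TGTGGT. Its long run of capitals is a match to the DR3 consensus, a pair of hexamers spaced by 3 bases, which overlaps the CAGATG.
Erg +31.0 kb: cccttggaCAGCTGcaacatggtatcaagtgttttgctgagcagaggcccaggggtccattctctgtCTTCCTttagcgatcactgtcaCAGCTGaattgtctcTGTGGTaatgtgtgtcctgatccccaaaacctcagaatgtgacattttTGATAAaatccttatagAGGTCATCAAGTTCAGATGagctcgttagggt
The Fli1 sequences begin with that of the highest OCR of the window, 14.9 kb upstream (chr9:32556437-32556637). Then come that of the intronic OCR closest to +12 kb, at +11.8 kb (chr9:32529680-32529880), and the 200 bp upstream of the Fli1-201 start (chr9:32541596-32541795). The first held 1 ETS motif AGGAAG and 1 Runx1 motif TGTGGT, the next 2 of AGGAAG and 1 of the GATA motif TGATAA, and the last 1 of the GATA motif AGATAA.
Fli1 -14.9 kb: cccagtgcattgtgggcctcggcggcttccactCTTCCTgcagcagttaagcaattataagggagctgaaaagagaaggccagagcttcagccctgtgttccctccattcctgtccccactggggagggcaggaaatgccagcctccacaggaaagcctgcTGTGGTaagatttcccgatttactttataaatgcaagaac
Fli1 +11.8 kb: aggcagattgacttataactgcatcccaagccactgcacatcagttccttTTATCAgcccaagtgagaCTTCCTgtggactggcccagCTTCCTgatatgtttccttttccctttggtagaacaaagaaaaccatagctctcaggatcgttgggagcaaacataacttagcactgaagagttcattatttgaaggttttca
Fli1 upstream of start: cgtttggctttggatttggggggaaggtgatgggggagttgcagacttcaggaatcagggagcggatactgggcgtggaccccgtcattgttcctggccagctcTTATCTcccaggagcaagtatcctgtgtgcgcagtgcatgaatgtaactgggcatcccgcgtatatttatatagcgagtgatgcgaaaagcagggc

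Erg had 6 annotated start sites, and only the 3 downstream ones lay under an OCR. The gene (ENSMUSG00000040732.20) spans chr16:95359169-95586593 on the minus strand, 227.425 kb with 8 transcripts. Its first start, at 95586593 (Erg-206), had no peak within 1 kb in any of the 7 libraries, and the nearest summit lay 14.2 kb away in an OCR of 2 libraries. The second start, at 95530365 (Erg-201 and Erg-208), and the third, at 95524603 (Erg-204), likewise had none, and their nearest summit, 27.1 and 21.4 kb away, was that of 1 weak OCR in 4 libraries. These starts lie in the longest stretch of the Erg window without an OCR in any list, 62.7 kb. The lists hold only what passed the peak caller, so weaker openings at these starts were not detectable. The internal starts at 95459348 (Erg-203), 95459303 (Erg-207) and 95459245 (Erg-202 and Erg-205) lie within introns of the longer transcripts and shared 1 OCR, chr16:95457793-95460149. The start OCR had a fold enrichment of 31.4 (HPC7-6) at the lowest, 45.4 at the median and 67.6 (HPC7-4) at the highest, with a mean of 48.5 ± 12.8 (SD, n = 7). Its percentile lay between 85.3 and 91.7. Distances in the Erg window are given from the Erg-203 start, with downstream positive.

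Both start sites of Fli1 lay under 1 wide OCR found in all 7 libraries. The gene (ENSMUSG00000016087.13) spans chr9:32422204-32542861 on the minus strand, 120.658 kb with 2 transcripts, whose starts at 32542861 (Fli1-202) and 32541595 (Fli1-201) are 1.27 kb apart. The OCR, chr9:32539136-32543580, was 4445 bp wide, and its summit lay 0.047 kb downstream of the Fli1-201 start, over UTR. Fold enrichment there was 33.5 (HPC7-6) at the lowest, 56.1 at the median and 68.5 (HPC7-1) at the highest, with a mean of 54.1 ± 12.3 (SD, n = 7) and percentiles between 86.1 and 92.5. Distances in the Fli1 window are given from the Fli1-201 start. The difference between the start OCRs of the genes, Erg minus Fli1, was -0.17 ± 0.34 in log2 fold enrichment (SD, n = 7 libraries, negative in 5 of 7), smaller than its spread (two-sided exact permutation by sign flips, p = 0.266, Benjamini-Hochberg adjusted p = 0.304 over 8 tests). The mean was 0.11 in the 3 libraries with the VD prefix, of which 1 was negative. It was -0.37 in the 4 with the EtOH prefix, of which 4 were negative. Over the libraries left after removal of 1, it was -0.09 without HPC7-8, -0.11 without HPC7-5 and -0.24 without HPC7-4. At the Erg start OCR every library with the VD prefix had a higher percentile than every library with the EtOH prefix, by 0.891 points at the closest, whereas at the Fli1 start OCR the ranges overlapped.

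**Figure D1:**
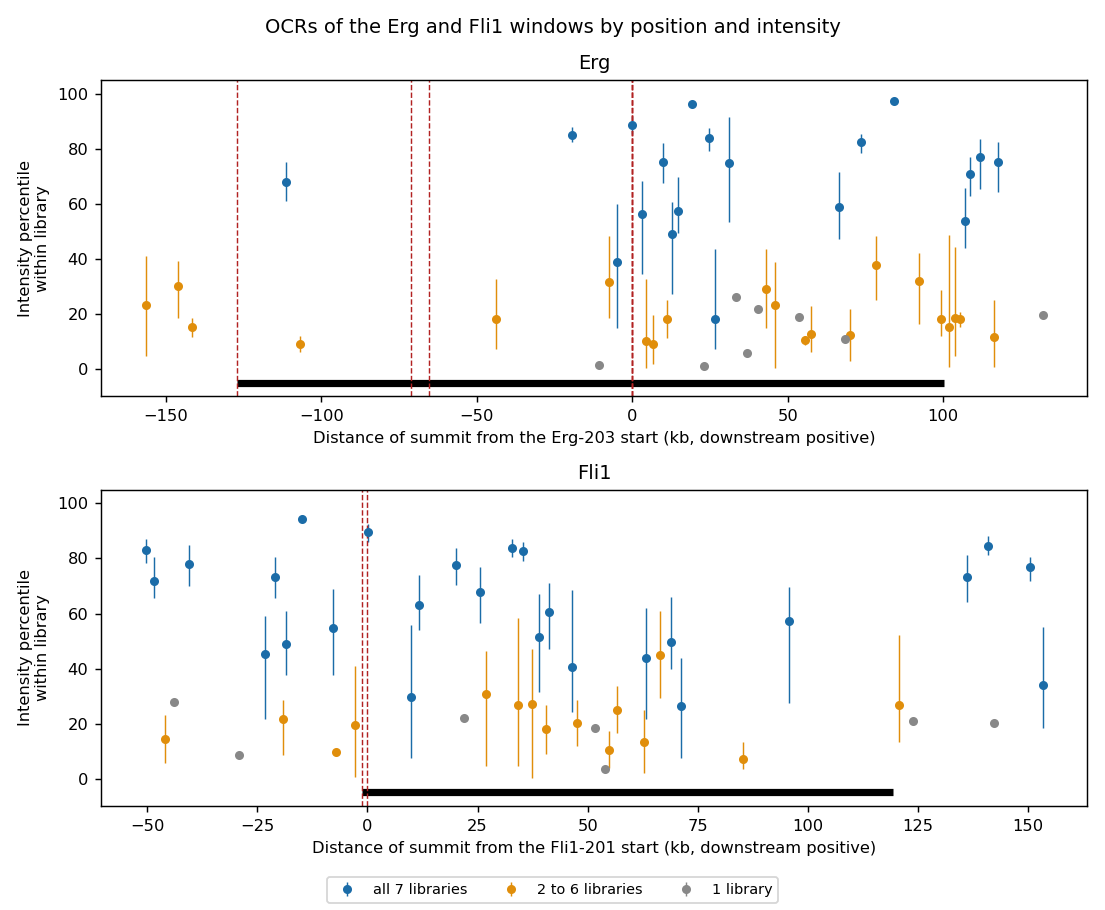
Each point is 1 of the 96 OCRs, at the distance of its summit from the Erg-203 or Fli1-201 start (kb, downstream positive) and its mean intensity percentile, with lines from the lowest to the highest of the libraries that have it, dashed red lines at the annotated starts and a black bar for the gene body. The highest points are the Erg OCRs at +84.2 and +19.4 kb and the Fli1 OCR at -14.9 kb, and no point above 40 lies between the Erg OCRs at -111.5 and -19.4 kb.

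The highest OCR of the Erg window was not at a start site but in an intron 84.2 kb downstream of the internal start. This OCR, chr16:95374298-95376807, lies in intron 6 of Erg-203. Its fold enrichment was 84.5 (HPC7-6) at the lowest, 134 at the median and 152 (HPC7-4) at the highest, with a mean of 126 ± 23.7 (SD, n = 7), from between 539 and 3029 reads at the summit. Its percentile lay between 96.1 and 97.9. Relative to the start OCR of the same library its fold enrichment was 2.66 ± 0.449 times as high and above 1 in 7 of 7 libraries. From the other internal starts the summit lay 84.2 and 84.1 kb downstream, and from the 3 outer starts 211, 155 and 149 kb.

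The second highest was the OCR 19.4 kb downstream of the internal start, chr16:95437936-95442276, in intron 1 of Erg-203. This OCR had a fold enrichment of 82.1 (HPC7-6) at the lowest, 118 at the median and 127 (HPC7-4) at the highest, a mean of 109 ± 18.1 (SD, n = 7) with percentiles between 95.6 and 96.9. It was lower than the +84.2 kb OCR in each of the 7 libraries, but the ranges of both fold enrichment and percentile overlapped. It stood 2.33 ± 0.491 times as high as the start OCR and above it in 7 of 7. At 4341 bp it was the widest OCR of the Erg window, and the 7 lists held 13 peaks in it. Its summit lay 84.6 kb downstream of the Erg-204 start, so that both of the highest Erg OCRs lie within 3 kb of 85 kb from an annotated start, and the annotation alone does not say which of them the name +85 denotes.

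Of the other OCRs near 85 kb from a start, those 83.8 and 85.7 kb downstream of the second start, at +12.8 and +14.7 kb in intron 1 of Erg-203, were found in all 7 libraries but were of middling intensity. The +12.8 kb OCR ranged in fold enrichment from 4.07 (HPC7-6) through a median of 6.44 to 9.18 (HPC7-8), with percentiles between 27.4 and 60.8. The +14.7 kb OCR ranged from 6.10 (HPC7-6) through 7.57 to 12.8 (HPC7-8), with percentiles between 49.5 and 69.8. Both were below the start OCR in every library. The OCR at +11.2 kb was listed in 2 libraries, at a fold enrichment of 2.99 in HPC7-1 and 3.19 in HPC7-4. The OCR at -43.9 kb, 83.4 kb downstream of the first start, was listed in 4, between 3.06 (HPC7-7) and 3.93 (HPC7-8).

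The 5 highest intronic OCRs of Erg by mean percentile include the start OCR, and the remaining ones lay on either side of it. The OCR at -19.4 kb (chr16:95478455-95479334) varied least of them in fold enrichment, from 27.4 (HPC7-6) through a median of 33.5 to 36.9 (HPC7-2), with a mean of 33.2 ± 3.23 (SD, n = 7) and percentiles between 82.4 and 87.8. The OCR at +24.6 kb (chr16:95434125-95435422) ranged from 19.2 (HPC7-6) through 31.0 to 39.3 (HPC7-8), with a mean of 30.9 ± 6.11 and percentiles between 79.2 and 87.4. The mean percentiles of these OCRs differed by less than their spread. Next by mean percentile came the OCR at +73.7 kb (chr16:95384612-95386345, intron 3), with a fold enrichment of 27.1 ± 4.60 and percentiles between 78.3 and 85.4.

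In all, 19 of the 48 Erg OCRs (39.6%, exact Clopper-Pearson 95% interval 25.8 to 54.7) were found in every library, and 15 of these were intronic. These 15 include the start OCR, whose summit lies in an intron of longer transcripts, whereas the summit of the Fli1 start OCR lies over UTR. The share in every library over all merged OCRs was 46.2%. For Erg it was 21.3% (10 of 47) at 50% reciprocal overlap and 62.1% (18 of 29) with equal numbers of peaks from each library. The share over all merged OCRs is not given at these 2 settings, so 46.2% is not their background. Besides the start OCR, the Erg OCRs in every library were upstream of it those at -111.5, -19.4 and -4.8 kb, of which the first lies in an intron of Erg-206. From the internal start to +35 kb, all within intron 1 of Erg-203, 8 of 13 OCRs were in every library, those at +3.3, +9.9, +12.8, +14.7, +19.4, +24.6, +26.6 and +31.0 kb. Between 35 and 75 kb downstream, 2 of 11 were, at +66.4 and +73.7 kb, and between 75 and 100 kb the +84.2 kb OCR alone of 4. The mean percentile of these intronic OCRs ran from 18.3 at +26.6 kb to 97.2 at +84.2 kb. The Erg OCR over exon sequence, at +99.2 kb in the UTR, was listed in 3 libraries with a mean percentile of 18.2.

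The flanks of Erg differed from each other. The 3 OCRs of the upstream flank were all weak and none was in every library, and the strongest, 18.9 kb upstream of the first start, was listed in 6 libraries at fold enrichments between 3.60 (HPC7-6) and 5.22 (HPC7-5). The downstream flank had 9, of which 4 were in every library, at +107.0, +108.7, +111.9 and +117.7 kb, all over the antisense gene Gm31641. The highest of them, at +111.9 kb (chr16:95345824-95347993), ranged in fold enrichment from 9.70 (HPC7-6) through a median of 19.8 to 24.9 (HPC7-8), a mean of 19.3 ± 5.01 (SD, n = 7) with percentiles between 65.2 and 83.7. Its neighbour at +117.7 kb had 17.4 ± 3.96 and was lower in each of the 7 libraries, but the ranges of fold enrichment overlapped.

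In the Fli1 window the highest OCR lay upstream of the gene. This OCR, chr9:32555233-32556833, had its summit 14.9 kb upstream of the Fli1-201 start and 13.7 kb upstream of the Fli1-202 start, outside any annotated gene. Its fold enrichment was 62.6 (HPC7-6) at the lowest, 92.1 at the median and 101 (HPC7-8) at the highest, with a mean of 86.3 ± 14.9 (SD, n = 7) from between 399 and 2003 reads, and percentiles between 93.2 and 95.7. It stood 1.62 ± 0.192 times as high as the start OCR of the same library and above it in 7 of 7. The mean fold enrichments of the highest OCRs of the windows, 126 ± 23.7 for Erg and 86.3 ± 14.9 for Fli1, were not tested against each other, and their percentile ranges do not overlap.

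The intronic OCR closest to 12 kb downstream of the Fli1-201 start was present in every library but far lower than the start OCR. It lies at chr9:32529476-32530551, with its summit 11.8 kb downstream of the Fli1-201 start and 13.1 kb downstream of the Fli1-202 start, in intron 1 of Fli1-201. At its summit the fold enrichment was 6.88 (HPC7-6) at the lowest, 9.19 at the median and 15.6 (HPC7-8) at the highest, with a mean of 10.2 ± 2.81 (SD, n = 7), from between 43 and 185 reads. Its percentile lay between 54.0 and 74.1, above the median of every library. Relative to the start OCR its fold enrichment was 0.192 ± 0.0468 times as high, and below 1 in 7 of 7 libraries. The neighbouring OCR at +9.9 kb (11.2 kb from Fli1-202) was weaker, with fold enrichments from 3.29 (HPC7-6) through 4.59 to 5.94 (HPC7-1). Its percentiles lay between 7.38 and 55.8, and it was lower than the +11.8 kb OCR in each library. From the Fli1-202 start it lies closer to 12 kb, and the annotation alone does not say which of them the name +12 denotes.

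**Figure D2:**
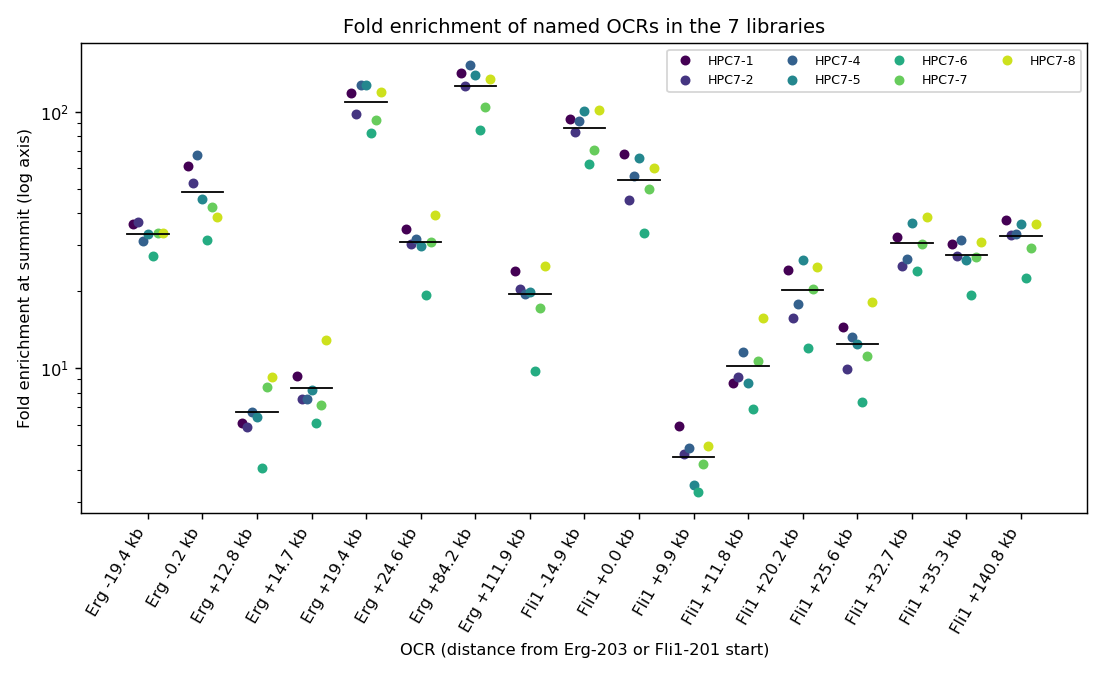
Points give the fold enrichment at the summit (log axis) of each described OCR found in all 7 libraries, coloured by library, with a bar at the mean. The Erg OCRs at +84.2 and +19.4 kb lie above the Erg start OCR (-0.2 kb) in every library, the Fli1 OCR at +11.8 kb lies below the Fli1 start OCR (+0.0 kb) in every library, and HPC7-6 gives the lowest point of each OCR.

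Other intronic OCRs of Fli1 were stronger than that at +11.8 kb. The highest was at +32.7 kb (chr9:32508102-32511877), which also overlaps the genes Gm27201 and Gm38346, with fold enrichments from 23.9 (HPC7-6) through a median of 30.4 to 38.9 (HPC7-8), a mean of 30.5 ± 5.78 (SD, n = 7) and percentiles between 80.6 and 87.2. The OCR at +35.3 kb (chr9:32505792-32507074) had fold enrichments from 19.2 (HPC7-6) through 27.2 to 31.6 (HPC7-4), with percentiles between 79.2 and 86.1. These neighbours in order differed by less than their spread. They were followed by the OCR at +20.2 kb (chr9:32520983-32521984), with fold enrichments from 11.9 (HPC7-6) through 20.2 to 26.4 (HPC7-5) and percentiles between 70.4 and 83.7. The OCR at +25.6 kb (chr9:32515692-32517088) had fold enrichments from 7.35 (HPC7-6) through 12.4 to 18.1 (HPC7-8) and percentiles between 56.7 and 76.9, a range that overlaps that of the +11.8 kb OCR. All of these lie in intron 1 of Fli1-201.

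Of the 48 Fli1 OCRs, 26 (54.2%, exact Clopper-Pearson 95% interval 39.2 to 68.6) were in every library, where 46.2% of all merged OCRs were. The share for Fli1 was 39.1% (18 of 46) at 50% reciprocal overlap and 70.6% (24 of 34) with equal numbers of peaks. Again the share over all merged OCRs is not given at these settings, so 46.2% is not their background. In the gene body the OCRs in every library were the start OCR and 13 of 26 intronic OCRs, at +9.9, +11.8, +20.2, +25.6, +32.7, +35.3, +38.9, +41.3, +46.5, +63.3, +69.0, +71.1 and +95.6 kb. The upstream flank held 8 of 14, at -50.3, -48.5, -40.6, -23.1, -21.0, -18.5, -14.9 and -7.7 kb. The outermost, at -50.3 kb, had a fold enrichment of 29.4 ± 8.18 and a mean percentile of 83.2. The downstream flank held 4 of 7, at +136.2, +140.8, +150.4 and +153.3 kb, the last 2 over Kcnj1, which encodes a potassium channel best known from the kidney. The highest downstream, at +140.8 kb (chr9:32400220-32401565), ranged from 22.4 (HPC7-6) through a median of 33.4 to 37.9 (HPC7-1), a mean of 32.7 ± 5.39 with percentiles between 81.2 and 88.1, and lies outside any gene.

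OCRs missing from some libraries were weaker at the median than the shared ones in both windows, with overlap. The 19 shared Erg OCRs had a median of mean percentiles of 74.7 with a lowest of 18.3, and the other Erg OCRs 18.04 with a highest of 37.7. For Fli1 the values were 65.6 with a lowest of 26.5, and 20.3 with a highest of 44.9. Since the lists leave out what did not pass the peak caller, this order is in part set by the calling. Together 45 of 96 members (46.9%) were in all 7 libraries, close to the 46.2% of all merged OCRs. There were 15 members found in 1 library, 8 of Erg and 7 of Fli1, where 17.9% of all merged OCRs were. Of the 15, 12 were listed in HPC7-1 alone, the library with the highest background. The share of HPC7-1 among all merged OCRs found in 1 library is not given here, so nothing particular to these windows is read from this count.

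Both windows were denser in OCRs than the genome, and Fli1 was denser than Erg. The Erg window of 327.425 kb held between 29 and 47 peaks in a library, or 10.8 ± 2.09 per 100 kb (SD, n = 7). The Fli1 window of 220.658 kb held between 29 and 46, or 16.9 ± 2.80 per 100 kb, and chromosomes 1 to 19, X and Y held 3.89 ± 0.625. Erg exceeded the genome by 6.89 ± 1.502 and Fli1 by 13.0 ± 2.22 OCRs per 100 kb, and Erg minus Fli1 was -6.12 ± 1.43. Every library of the 7 had the sign of the mean in each of these differences (two-sided exact permutation by sign flips, p = 0.0156, adjusted p = 0.0313, with no smaller p possible at this n). The mean differences in the libraries with the VD and EtOH prefixes were 7.47 and 6.45 for Erg minus genome, 12.9 and 13.1 for Fli1 minus genome, and -5.42 and -6.65 for Erg minus Fli1. With flanks of 100 kb Erg minus Fli1 was -3.61. OCRs covered 7.57% ± 1.98 of the Erg window, 11.9% ± 2.91 of the Fli1 window and 2.61% ± 0.494 of the genome. By the same window rule the median density over 21938 protein-coding genes was 7.55 per 100 kb.

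The intensity of the peaks did not set the windows apart in the same way. The median percentile of the Erg peaks was 48.9 ± 8.22 (SD, n = 7 libraries), from 34.6 in HPC7-4 to 57.3 in HPC7-2. Its difference from 50, -1.15 points, was within the spread, with 3 of 7 libraries negative (two-sided exact permutation by sign flips, p = 0.734, adjusted p = 0.734). The sign turned under other settings, to 4.90 points with equal numbers of peaks (exact permutation p = 0.0313), 3.85 at a -log10 q minimum of 5, 4.06 for OCRs over 1 kb from any start, 2.14 for the gene body and 0.927 with flanks of 100 kb. It also turned without HPC7-1 (0.00325) and without HPC7-4 (1.23). That of Fli1 was 55.1 ± 2.95, above 50 by 5.13 points in 7 of 7 libraries (exact permutation p = 0.0156, adjusted p = 0.0313). This difference was -2.12 points for the gene body alone (exact permutation p = 0.406), 2.38 points with flanks of 100 kb (p = 0.203) and 1.61 points with equal numbers of peaks from each library (p = 0.250), so that the call rests on the choice of window and list. Erg minus Fli1 was -6.28 ± 8.23 points, negative in 6 of 7 (exact permutation p = 0.0781, adjusted p = 0.125). It was 0.268 at a -log10 q minimum of 5, 3.30 with equal numbers of peaks and 4.26 for the gene bodies. With flanks of 100 kb it was -1.45, and for OCRs over 1 kb from any start -3.41. Without HPC7-7 it was -7.78 (exact permutation p = 0.0313). The mean with the main settings was -11.9 in the libraries with the VD prefix and -2.07 in those with the EtOH prefix. The means for Erg minus 50 were -5.37 and 2.02, and for Fli1 minus 50 they were 6.51 and 4.09.

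Among the 25% most intense peaks of a library were 25.1% ± 3.92 of the Erg peaks and 27.0% ± 2.36 of the Fli1 peaks (SD, n = 7), where 25% is the value over all peaks by construction. The difference of -1.96 ± 2.76 percentage points, negative in 5 of 7 libraries, was within its spread (exact permutation p = 0.109, adjusted p = 0.146). The mean was -0.51 points in the libraries with the VD prefix and -3.05 in those with the EtOH prefix. With the gene bodies alone the sign turned, to 6.85 points higher in Erg (exact permutation p = 0.0156), and it was also positive with equal numbers of peaks (2.43) and for OCRs over 1 kb from any start (1.08). With flanks of 100 kb it was -4.53 points (exact permutation p = 0.0156).

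**Figure D3:**
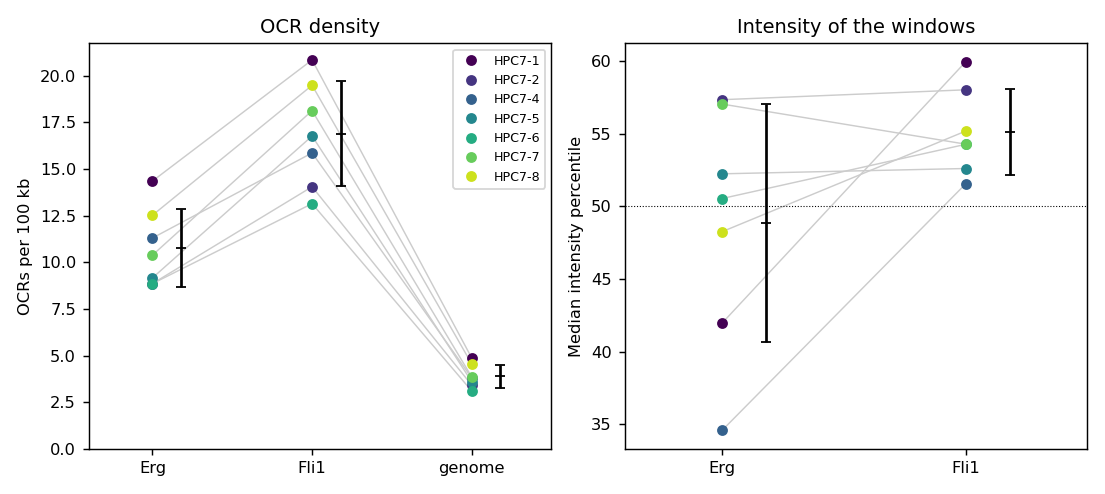
The left panel gives OCRs per 100 kb in the Erg window, the Fli1 window and the genome, and the right panel the median intensity percentile of the peaks in each window, with 1 point per library joined by grey lines, the mean and SD beside them and a dotted line at 50. In each library the Fli1 window was the densest and the genome the least dense, whereas the median percentile of Erg ran from 34.6 to 57.3 around 50.

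The OCR at +31.0 kb of Erg, in intron 1 of Erg-203 (chr16:95427530-95428792), varied widely between libraries. It is singled out after its values were seen. Its percentiles spanned 38.2 points, the widest span of any member in every library with a mean percentile over 70. Fold enrichments of 59.7 (HPC7-1), 58.1 (HPC7-2) and 64.0 (HPC7-4) were listed in the libraries with the VD prefix. Those with the EtOH prefix had 8.53 (HPC7-5), 8.13 (HPC7-6), 10.8 (HPC7-7) and 12.4 (HPC7-8). As percentiles these were 91.5, 90.4 and 91.0 against 53.3, 59.99, 67.6 and 68.9, and the ranges are 21.4 points apart. Relative to the Erg start OCR of the same library the fold enrichment was 0.972, 1.10 and 0.947 times as high in those, and 0.188, 0.259, 0.255 and 0.320 times as high in the others. The background was 20.4, 4.44 and 7.45 reads in the first 3 and between 4.75 and 5.87 reads in the other 4. The part of depth in these values was not tested.

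All 3 libraries with the VD prefix lay above the 4 others in percentile at 1.64% of these OCRs, and below them at 0.0239%. Of the 45 members, 2 had the first order (4.44%), both in Erg, the +31.0 kb OCR and the start OCR, and 0 had the other. Of the 66979 OCRs in every library, 36 (0.0537%) had a gap at least as wide as that at +31.0 kb, which is counted among them. The prefix ranges overlapped at -19.4, +19.4, +24.6 and +84.2 kb. Percentiles depend on the length of a list, so the order was taken again with other rankings, chosen after these values were seen. With equal numbers of peaks from each library, the first order was found at 4.57% of OCRs and the other at 2.29%, and at 6 and 1 of 42 members. Ranked among the OCRs in every library, these were 3.92% and 2.98%, and 6 and 2 of 45 members. The order at the +31.0 kb OCR and at the start OCR held in both, and those at +66.4, +84.2 and +117.7 kb appeared in both. The gap at +31.0 kb was 26.6 points in the first and 31.6 in the second, and 36 and 37 OCRs had one at least as wide.

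**Figure D4:**
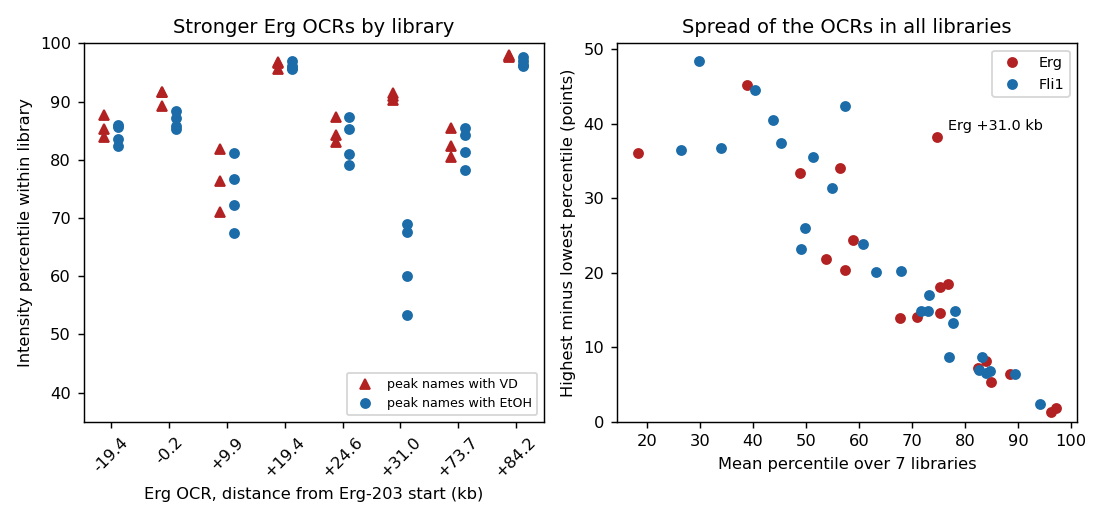
The left panel gives the percentile in each library of the Erg OCRs between -25 and 90 kb with a mean percentile over 70, with triangles for libraries with the VD prefix and circles for EtOH, and the right panel the highest minus the lowest percentile of each OCR in all 7 libraries against its mean. At +31.0 kb the triangles lie between 90.4 and 91.5 and the circles between 53.3 and 68.9, and in the right panel this OCR lies above all others of similar mean.

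The +31.0 kb OCR was also the only one of the 96 members whose 201 bp around the summit held the DR3 consensus. This consensus is the layout bound by the vitamin D receptor and some other nuclear receptors, and it was searched for only after the order of the libraries had been seen. The match was on the minus strand, and its lowest coordinate, position 95428242 of chromosome 16, lay 83 bp from the median summit. The consensus was found in 0.109% of all merged OCRs and in 0.0597% of those in every library. It was found in 23 of the 1100 with the VD prefix above (2.09%) and in 4 of the 36 with a gap at least as wide. Each of these sets, and the matches counted in it, includes the +31.0 kb OCR itself. What the prefixes stand for is not given, and the part of the motif in the order of the libraries was not tested.

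Motif letters are given for the members in every library beside the share over all OCRs in every library. AGGAAG was found within 100 bp of the summit in 22 of the 45 members in every library (48.9%), beside 41.1% of all such OCRs and 39.3% of all merged OCRs. Either ETS motif was found in 51.1% of the 45 and 45.5% of the OCRs in every library, and CCGGAA in 1 of the 45 (2.22%), beside 6.49%. Either GATA motif was found in 16 of the 45 (35.6%), beside 22.6%. TGTGGT was also found in 16 (35.6%), beside 27.0%. The E-box CAGCTG was found in 6 (13.3%), beside 14.7%, and CAGATG in 9 of the 45, beside 17.9%. The CTCF core consensus was found at 2 Erg OCRs in every library, at +108.7 and +117.7 kb in the downstream flank, which is 4.44% of the 45, beside 6.05%. Matches are a description of these windows and not binding sites, and no test was made on them.

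Among the 7 heptad genes, Erg had the lowest OCR density by the same window rule. Windows measured 327 kb at Erg, 325 kb at Runx1, 221 kb at Fli1 and from 103 kb (Lyl1) to 124 kb (Lmo2) elsewhere. The part of window length in the order was not tested. The density was 27.4 ± 2.35 per 100 kb at Lyl1, 20.2 ± 1.92 at Tal1, 18.9 ± 2.75 at Lmo2, 16.9 ± 2.80 at Fli1, 14.4 ± 4.44 at Gata2, 14.0 ± 2.79 at Runx1 and 10.8 ± 2.09 at Erg (SD, n = 7), and neighbours in this order from Tal1 to Runx1 differ by less than their SD. Of the protein-coding genes, 64.4% had a lower density than Erg and 85.6% had a lower one than Fli1. Within 1 kb of a start site the fold enrichment was 48.5 ± 12.8 at Erg, 52.2 ± 8.84 at Gata2 and 54.1 ± 12.3 at Fli1, which differ by less than their spread. It was 88.3 ± 12.8 at Tal1, 104 ± 21.7 at Lmo2, 128 ± 69.1 at Runx1 and 266 ± 56.0 at Lyl1. The start OCRs of Erg and Fli1 thus lay lowest with that of Gata2, above the median of 17.1 over all genes and above 59.2% and 61.3% of them. No test was made between these genes.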

How the data were processed

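Bulk ATAC-seq was performed on 7 libraries of HPC7. Adapters had been removed by the authors with Cutadapt, reads mapped by BWA-mem against mm10, and peaks called by MACS2 library by library. Versions and options are not given in the sources used here, and neither is any shift of reads for the Tn5 cut beyond the word shift in the folder name that the peak names carry. The deposited lists give a fold enrichment (a ratio to the library's background), the -log10 p and q values, an integer score made from the q, and the summit offset. No normalization between libraries is stated.

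Fold enrichments were whole multiples of 1 step per library (100% within 0.05 of a step), from which summit reads and background were computed. The interval around a share covers counting only. Peaks overlapping by at least 1 bp were merged, and the highest peak of each library in an OCR gave its value. The summit is the median over libraries, although the mean had been planned for the motif windows. Genes, starts and introns were taken from GENCODE M21, and sequences from the mm10 reference (GRCm38). Windows were compared by an exact permutation test over libraries (128 sign patterns, two-sided), with Benjamini-Hochberg adjustment over 8 tests. The functions were tested on simulated data.

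OCRs given in full are those within 1 kb of a start, the 5 intronic OCRs of each gene with the highest mean percentile, those within 3 kb of 85 kb (Erg) or 12 kb (Fli1) downstream of a start, and the highest of each flank. The 5 intronic OCRs of Erg include its start OCR. Erg OCRs at +31.0 and +73.7 kb are added. The members, lists and rules were chosen with earlier results of these data known, and the split by prefix and the DR3 consensus after the values were seen. Other settings tried were a -log10 q minimum of 5, equal numbers of peaks, other windows, 50% reciprocal overlap, peaks away from starts, starts within 3 kb, coding transcripts, -log10 p, and each library left out. Single-nucleus data were not used here. Tools were numpy 2.4.6 and pandas 2.3.3 on Python 3.11.15, with pysam 0.24.0, bedtools 2.31.1, scipy 1.17.1 and matplotlib 3.10.9.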

Additional observations from a re-analysis of the deposited data

Results flagged for a closer look

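Of 30 measures per library tested for a library that stands apart (Dixon's criterion for 7 values, which chance alone meets in about 1 of 20 groups), 2 were met, both by HPC7-1. OCRs covered 11.6% of the Erg window in HPC7-1, with 7.94% in the next library. OCRs covered 3.59% of the genome in HPC7-1, with 2.73% in the next. HPC7-1 also had the highest background, 20.4 reads.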

How the results depend on the processing

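Of 111 alternative values, 89 kept their direction and their side of the threshold or, for shares of OCRs in every library, which have no test, stayed within the counting interval. The densities of the windows against the genome and against each other did so under every alternative run, though Erg minus Fli1 moved to -3.61 OCRs per 100 kb with flanks of 100 kb, and without each library in turn Erg minus genome lay between 6.46 and 7.13, Fli1 minus genome between 12.5 and 13.5 and Erg minus Fli1 between -6.43 and -5.85 OCRs per 100 kb. The median percentile of Erg minus 50 turned positive with a -log10 q minimum of 5 (3.85), with equal numbers of peaks (4.90, exact permutation p = 0.0313), in the gene body (2.14), with 100 kb flanks (0.927) and for OCRs over 1 kb from any start (4.06), and without single libraries lay between -2.56 and 1.23, with 0.00325 without HPC7-1 and 1.23 without HPC7-4. Fli1 minus 50 was 1.61 with equal numbers, -2.12 in the gene body and 2.38 with 100 kb flanks, and between 4.32 and 5.73 without single libraries. Erg minus Fli1 was 0.268 at the stricter q, 3.30 with equal numbers and 4.26 in the gene body. It was -1.45 with 100 kb flanks and -3.41 for OCRs over 1 kb from any start. Without single libraries it lay between -7.78 and -4.32, with -7.78 (exact permutation p = 0.0313) without HPC7-7. The top 25% share, Erg minus Fli1, was 2.43 with equal numbers, 6.85 in the gene body, -4.53 with 100 kb flanks (exact permutation p = 0.0156) and 1.08 away from starts, and between -2.62 and -1.48 without single libraries. The start OCR difference lay between -0.24 and -0.09 without single libraries. The share of OCRs in every library was 21.3% for Erg and 39.1% for Fli1 at 50% reciprocal overlap, and 62.1% and 70.6% with equal numbers, where fewer peaks are merged. Without single libraries it lay between 39.6% and 45.5% for Erg and between 54.2% and 60.4% for Fli1. The share over all merged OCRs is given for the main setting only, so these alternative shares have no background beside them. Except where the construction shows it, the cause was not tested. Libraries could not be paired between groups, because they form 1 group and their replicate numbers have no other group to match. The differences between windows were paired, since they were taken within each library. The lowest fold enrichment listed was 1.68 in HPC7-1 and between 2.13 and 2.44 in the other libraries, and OCRs weaker than these were not detectable.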
